A study of Mus musculus with 18 samples.

Results

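The effect of GW4064 in wild-type (WT) mouse liver was set against its effect in livers without FXR in hepatocytes. For each gene the value was (WT GW4064 minus WT vehicle) minus (liver knockout GW4064 minus liver knockout vehicle), on the log2 scale, and it is called the difference below. A difference above 0 means that GW4064 raised the gene more, or lowered it less, in WT mice than in the knockout. The 4 groups hold 12 of the 18 arrays in the series, with 3 arrays in each group, and 12394 genes were measured. The remaining 6 arrays, from whole-body FXR knockout mice given vehicle or GW4064, take no part in the difference and are given beside it.

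By the labels, all mice were male, 10 to 16 weeks old and on a C57BL/6J background. Liver knockout mice carried floxed Nr1h4 (Fxr) alleles together with a Cre recombinase driven by the albumin promoter, which is active in hepatocytes, so that the gene is left intact by design in other liver cells and in the intestine. Whether the WT mice were floxed littermates without Cre is not given in the sources used here. Mice received vehicle (0 mg/kg) or GW4064 (150 mg/kg), a synthetic FXR agonist, by oral gavage at 6 p.m. and again at 8 a.m., and livers were taken 2 h after the second gavage. The labels number the samples of a group without saying that each is 1 mouse, so p-values measure the spread between these samples. In whole liver RNA, fewer cells of a type and less RNA per cell cannot be told apart.

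Nr1h4, the gene that encodes FXR, checked the genotype labels. Its values were 8.83 to 9.39 in the 6 WT arrays, 4.17 to 4.69 in the 6 liver knockout arrays and 3.98 to 4.30 in the 6 whole-body knockout arrays. Every WT array lay far above every knockout array, and vehicle and GW4064 arrays overlapped within each genotype. Mean levels of 11 hepatocyte identity genes lay between 13.49 and 13.69 in the arrays of all 4 groups compared. GW4064 replicate 1 of WT stood apart from the other arrays in the spread of its values around each gene's median (interquartile range 0.259, against 0.127 to 0.231 for the other 17). GW4064 replicate 3 of WT was the array with the smallest response in 160 of the 224 genes counted below, and replicate 1 was the one with the largest response in 167 of them. GW4064 replicate 3 of the whole-body knockout stood apart in sex-biased liver genes. Its median departure from its vehicle mean was -2.79 over 12 male-biased and 1.62 over 11 female-biased genes. Replicates 1 and 2 were at 0.08 and 0.21 for male-biased genes, and at 0.06 and 0.07 for female-biased ones. This array is part of every whole-body knockout effect given below, and the cause was not tested.

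FXR is a nuclear receptor for bile acids. In hepatocytes it induces Nr0b2 (SHP), a repressor of transcription, and in the ileum it induces the hormone FGF15, which reaches the liver through the portal blood and acts on FGFR4 and its partner beta-Klotho. Both routes lower transcription of Cyp7a1 and Cyp8b1, the enzymes that set the amount and the composition of the bile acid pool. FXR is also known to act on glucose and lipid metabolism and on inflammatory genes in liver. A knockout restricted to hepatocytes removes the first route and leaves the intestinal receptor in place.

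No gene passed an adjusted p of 0.05 for the difference with limma (0 of 12394, 0%), and the lowest adjusted p was 0.437. At an unadjusted limma p under 0.05 there were 925 genes, 7.46% of those tested, with 480 above 0 and 445 below. The study set limits of 1.5-fold and an unadjusted p of 0.05 on its arrays, there with an unpaired t-test. The same limits, applied to the p of limma, are called the study thresholds here. By them 108 genes were higher in WT (0.871%) and 116 were lower (0.936%). With a per-gene t statistic without moderation, nearer to the test of the study, 0 genes passed after adjustment and 140 by the same limits. For comparison, GW4064 itself changed 24 genes in WT (12 up, 12 down; 0.194%) and 0 in the liver knockout at an adjusted limma p of 0.05 (622 at an unadjusted p under 0.05 in the knockout), with 212 (1.71%) and 57 (0.46%) at the study thresholds. Differences are given below with their SE, and none of them is past the adjusted test for the difference unless an array is left out.

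That count depended on 1 array. Without GW4064 replicate 3 of WT, 50 genes passed the adjusted limma test for the difference, 32 higher and 18 lower, and 409 passed the study thresholds. That array had the smallest response in 160 of the 224 genes. Leaving it out tends to enlarge the WT effect and narrow the spread in such genes, so the 50 describe this dependence and are not added support. Among the 32 were Lcn2, Saa1, Saa2, Saa3, Saa4, Orm1, Orm2, Orm3, Socs3, Il1r1 and Serpina3n, and among the 18 were Igfbp1, G6pc, Acot1, Ces1e, Elovl6 and Cyp7a1. Without GW4064 replicate 1 of WT 125 genes passed the study thresholds, of which 112 were among the 224. Without GW4064 replicate 2 of the liver knockout 1 gene, Igfbp1, passed the adjusted test, and with any of the other 10 arrays left out 0 genes passed. Of 67 genes given below that are past the study thresholds, 40 remained past them with each of the 12 arrays left out in turn, and 27 did not. The number that remained was 45 without GW4064 replicate 1 of WT, 50 without vehicle replicate 2 of the knockout, and 55 to 66 without each of the other 10 arrays.

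**Figure D1:**
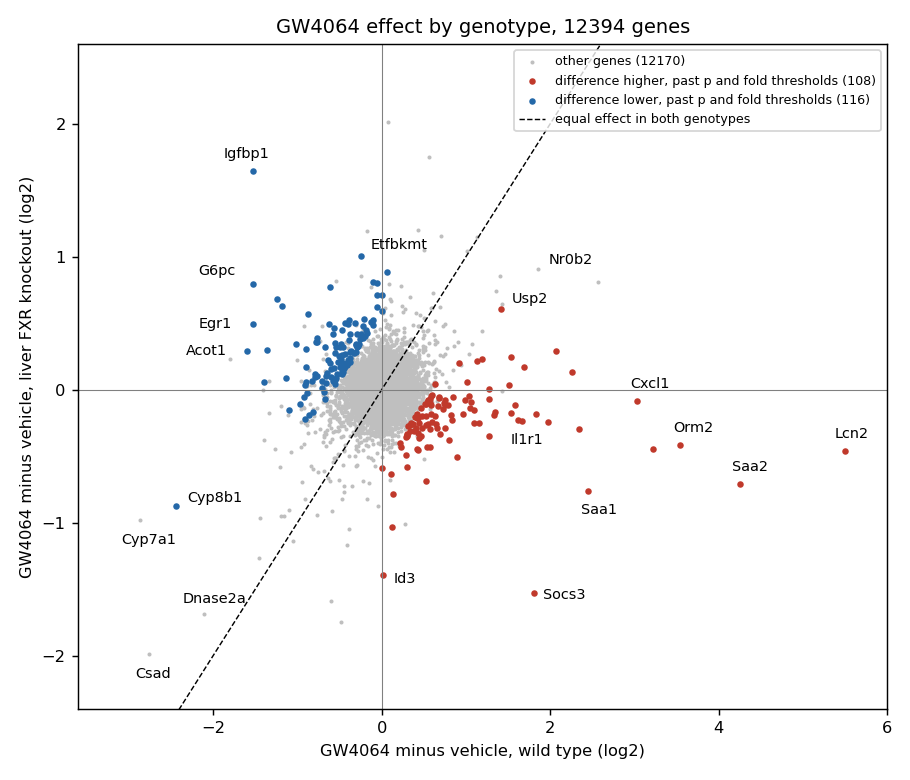
GW4064 minus vehicle (log2) in WT on the horizontal axis and in liver FXR knockout on the vertical axis, 1 point a gene for 12394 genes, with the 108 genes whose difference was higher past the study thresholds in red, the 116 lower ones in blue and equal effects on the dashed line. The acute-phase genes lie far to the right near or below 0 in the knockout, Igfbp1 and G6pc lie at upper left, and Csad and Dnase2a lie low in both genotypes near the dashed line.

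The 224 genes at the study thresholds came from effects in either genotype. In 155 of them the unadjusted limma p was under 0.05 in WT alone, in 34 it was under 0.05 in the liver knockout alone, in 25 in both and in 10 in neither. Of the 25 genes with an effect in both genotypes, 24 moved in opposite directions. The effect was larger in the knockout than in WT for 49 of the 224. Choosing genes by a difference favours those whose 2 effects point apart, so these counts describe the selection and were not tested. Over the 108 higher genes the median effect was 0.64 in WT, -0.22 in the liver knockout and 0.11 in the whole-body knockout, and over the 116 lower genes it was -0.50, 0.29 and -0.07. GW4064 and vehicle arrays of WT did not overlap in 114 of the 224 genes, against 14.7% of all genes.

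The largest differences belonged to acute-phase proteins, secreted by hepatocytes during inflammation. All 25 of the measured genes on a list of 28 had a difference above 0, 15 of them were higher past the study thresholds and 0 were lower, against 0.871% and 0.936% of all genes. The list, like the others, was chosen with earlier results of these data known, so these counts are a description. The median of the list was 1.15 for the difference, 0.97 for the effect in WT, -0.08 in the liver knockout and 0.17 in the whole-body knockout, beside medians of -0.000291, -0.00396, -0.00209 and -0.0117 over all genes. By array, the list's median departure from the vehicle mean was 1.39, 1.16 and 0.22 in WT GW4064 replicates 1 to 3. In the liver knockout it was -0.10, -0.14 and 0.07, so that every WT GW4064 array lay above every knockout GW4064 array. Without WT GW4064 replicate 1 the median difference was 0.74 and 10 members passed the study thresholds. Without replicate 3, the array with the smallest response of the list, it was 1.38 and 17 members passed, 12 of them also after adjustment over all genes.

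Lcn2 (lipocalin 2), which binds bacterial iron carriers, had the largest difference of all genes. Its log2 values were 6.14, 6.43 and 5.70 in WT vehicle and 13.65, 12.91 and 8.22 in WT GW4064. They were 8.34, 9.52 and 8.42 in knockout vehicle and 7.97, 7.54 and 9.39 in knockout GW4064. The WT groups did not overlap and the knockout groups did, and the knockout vehicle arrays already lay above all 3 WT vehicle arrays. The effect was 5.50 in WT (limma, adjusted p = 0.0433) and -0.46 in the knockout, and the difference was 5.96 (SE 1.48, 95% interval 2.83 to 9.09, limma, adjusted p = 0.476). Lcn2 was 2.67 higher in knockout than in WT under vehicle, which did not pass (limma, adjusted p = 0.287).

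Saa1 and Saa2 encode serum amyloid A, carried on high-density lipoprotein. Saa2 read 9.21, 8.53 and 8.67 in WT vehicle, 14.54, 14.29 and 10.34 in WT GW4064, 11.08, 11.08 and 10.81 in knockout vehicle and 11.11, 8.60 and 11.14 in knockout GW4064. Saa1 read 11.79, 11.18 and 11.07 in WT vehicle, 14.42, 14.37 and 12.59 in WT GW4064, 13.07, 13.08 and 12.48 in knockout vehicle and 12.70, 10.70 and 12.94 in knockout GW4064. For both genes all WT GW4064 arrays exceeded all WT vehicle arrays, knockout vehicle arrays exceeded WT vehicle arrays, and GW4064 replicate 2 of the knockout was the low one. The differences were 4.96 (SE 1.21) for Saa2 and 3.21 (SE 0.71) for Saa1. Saa3 (1.69, SE 0.67) and Saa4 (1.15, SE 0.29), both chosen after their values were seen, had differences in the same direction, and Saa3 was at 0.91 without GW4064 replicate 1 of WT. Serum amyloid genes are close copies of one another, so that probes of one may detect another.

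The Saa1 and Saa2 promoters are shown because these neighbours were both among the 11 genes higher past the study thresholds with a difference over 4-fold. Each also holds a loose match to the inverted repeat that FXR is known to bind. The sequences are RefSeq's on GRCm38.p6, 250 bases before to 50 after the start of transcription, read 5′ to 3′ on the gene's strand, with capitals marking the match. Saa1 is at chr7:46742931-46743230 (minus strand) and Saa2 at chr7:46751583-46751882 (plus strand).
Saa1: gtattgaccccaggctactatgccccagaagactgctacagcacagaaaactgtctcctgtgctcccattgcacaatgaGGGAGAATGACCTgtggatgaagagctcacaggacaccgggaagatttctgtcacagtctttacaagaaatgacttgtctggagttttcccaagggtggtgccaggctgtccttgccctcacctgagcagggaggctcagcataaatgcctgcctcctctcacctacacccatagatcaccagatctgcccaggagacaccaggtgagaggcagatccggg
Saa2: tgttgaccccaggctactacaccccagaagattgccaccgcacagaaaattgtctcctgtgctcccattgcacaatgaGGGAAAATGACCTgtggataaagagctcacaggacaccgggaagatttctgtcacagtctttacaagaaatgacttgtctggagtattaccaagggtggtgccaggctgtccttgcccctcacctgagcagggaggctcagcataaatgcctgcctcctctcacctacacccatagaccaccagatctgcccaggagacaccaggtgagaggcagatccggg
The motif searched was AGGTCANTGACCT on both strands with at most 3 mismatches, which 10.2% of 12567 promoters of measured genes hold. The match begins 171 bases before the start of Saa1 and 172 bases before that of Saa2. Of 22 promoters of 21 acute-phase genes, 7 hold such a match (31.8%). Saa1, Saa2, Saa3 and Saa4 each hold one, and as close copies of one another they may not be independent cases. A match is a run of letters and not a measured site, and these promoters were not tested for binding here.

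Orm1, Orm2 and Orm3 encode orosomucoids, plasma carriers of basic drugs and lipids. Orm2 read 7.93, 7.03 and 6.55 in WT vehicle and 12.59, 11.74 and 7.81 in WT GW4064, where replicate 3 lay inside the vehicle range. In the knockout it read 8.64, 7.89 and 7.64 under vehicle and 7.78, 7.38 and 7.76 under GW4064, with overlap. The difference was 3.96 (SE 1.26) for Orm2, 2.13 (SE 0.64) for Orm3 and 0.87 (SE 0.21) for Orm1, the most abundant signal of these probe sets at 13.10 to 14.35. GW4064 arrays of Orm1 lay above all vehicle arrays in WT and below all vehicle arrays in the knockout. The protease inhibitor gene Serpina3n differed by 2.21 (SE 0.63), with 13.54, 12.91 and 10.89 in WT GW4064 against 10.68, 10.50 and 10.25 under vehicle. The pentraxin gene Apcs differed by 1.90 (SE 0.63), the metallothionein gene Mt2, which is also on the list, by 3.67 (SE 1.71), the endotoxin-binding protein gene Lbp by 1.26 (SE 0.57) and the metalloreductase gene Steap4 by 1.34 (SE 0.53). Itih3 and Itih4, heavy chains of the inter-alpha-trypsin inhibitors, differed by 0.83 (SE 0.32) and 0.59 (SE 0.25). Without GW4064 replicate 1 of WT, Apcs was at 1.20, and Mt2 (3.07), Lbp (0.74), Steap4 (0.92), Itih3 (0.51) and Itih4 (0.38) no longer passed. Mt2 also failed to pass without any 1 of 7 other arrays, Lbp without any 1 of 8, Itih4 without any 1 of 6 and Steap4 without any 1 of 2. The smallest difference on the list was 0.20. Off the list, the hepatokine gene Fgl1 (1.35, SE 0.40) and the glycoprotein gene Lrg1 (1.40, SE 0.38) were past the study thresholds in the same direction. Apcs, Lbp, Steap4, Itih3, Itih4, Fgl1, Lrg1 and Orm2 were chosen after their values were seen. In the whole-body knockout Lcn2 read 7.88, 8.11 and 9.14 under vehicle and 9.78, 8.52 and 11.94 under GW4064, with overlap, and replicate 3 also had the highest list median of that group at 0.41.

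**Figure D2:**
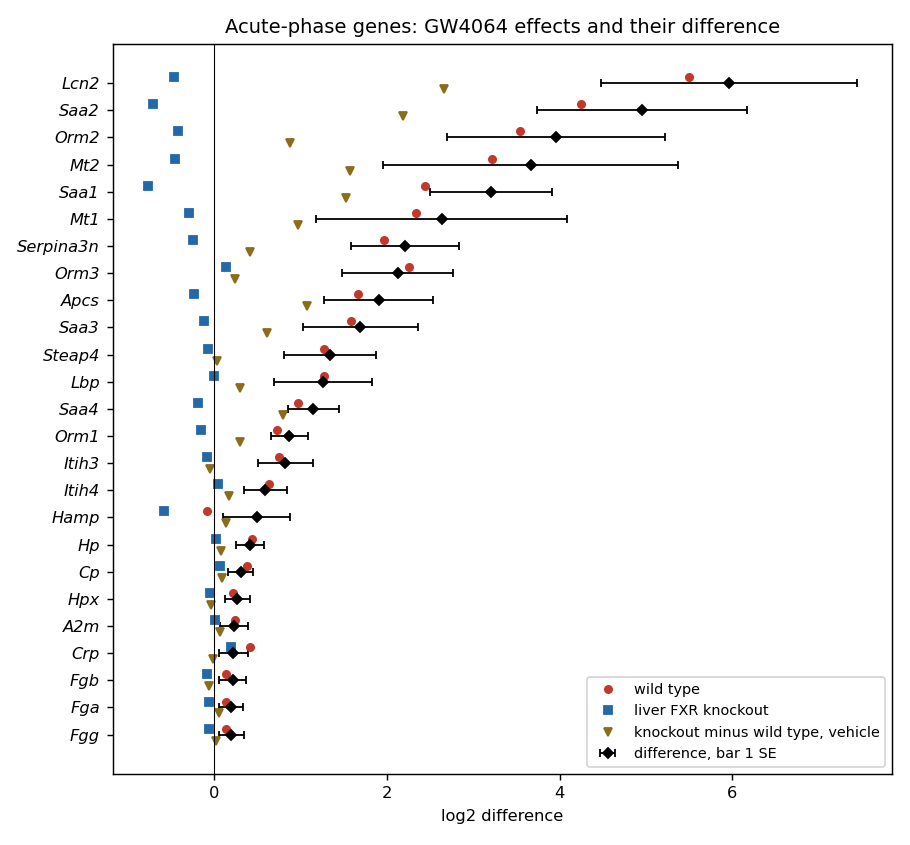
The 25 measured acute-phase genes, ordered by the difference (black diamonds, bars 1 SE), with the GW4064 effect in WT (red circles), the GW4064 effect in the liver knockout (blue squares) and knockout minus WT under vehicle (brown triangles), all in log2 units. WT effects and differences run together from a difference of 0.20 to 5.96 for Lcn2, while knockout effects lie between -0.76 (Saa1) and 0.19, and under vehicle the knockout is higher by 2.67 for Lcn2 and 2.18 for Saa2.

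Genes upstream of the acute-phase response, in IL-1, IL-6 and NF-kB signalling, were mixed. Of 28 measured, 22 lay above 0 (6189 of 12394 among all genes), 5 were higher past the study thresholds (0.871% of all genes) and 0 were lower, with a median difference of 0.12. Il1r1, the receptor of interleukin 1, read 8.83, 8.27 and 8.43 in WT vehicle, 10.82, 10.42 and 9.15 in WT GW4064, 8.79, 9.30 and 8.97 in knockout vehicle and 8.49, 8.69 and 9.18 in knockout GW4064. Only the WT groups were apart, and Il1r1 passed the adjusted test in WT (1.62, limma, adjusted p = 0.0433). Its difference was 1.85 (SE 0.44, limma, adjusted p = 0.476).

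Socs3, the inhibitor that IL-6 signalling induces against itself, had effects of opposite sign in the 2 genotypes. It read 7.98, 7.36 and 7.39 in WT vehicle, 10.47, 10.15 and 7.55 in WT GW4064, 10.05, 8.74 and 7.85 in knockout vehicle and 7.16, 7.26 and 7.62 in knockout GW4064. The knockout GW4064 arrays lay below all knockout vehicle arrays, and the WT groups overlapped through replicate 3. The effect was 1.81 in WT and -1.53 in the knockout, and the difference was 3.34 (SE 0.88). Bcl3 and Nfkbiz, nuclear partners of NF-kB, differed by 0.97 (SE 0.32) and 0.95 (SE 0.35), and the adhesion molecule gene Icam1 by 1.02 (SE 0.48), the last 2 chosen after their values were seen. Icam1 no longer passed with any 1 of 10 arrays left out, and was at 0.55 without GW4064 replicate 1 of WT. Nfkbia, the inhibitor of NF-kB, went the other way with a difference of -0.48 (SE 0.17), from an effect of 0.04 in WT and 0.52 in the knockout.

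Cxcl1, a chemokine that attracts neutrophils, read 7.13, 6.83 and 7.26 in WT vehicle and 11.02, 11.33 and 7.96 in WT GW4064. In the knockout it read 7.71, 8.99 and 6.48 under vehicle and 8.05, 6.92 and 7.96 under GW4064. The WT groups were apart, the knockout groups were not, and the difference was 3.11 (SE 1.30). Cxcl1 was 1 of 3 genes higher past the study thresholds among 22 of chemokines and leukocyte recruitment, with S100a8 and S100a9, and 0 were lower. Without GW4064 replicate 1 of WT it was 2.66 and no longer past the study thresholds, which it also failed to pass without any 1 of 4 other arrays (2.48 to 2.99). The Cxcl1 promoter is shown for its overlapping matches to the NF-kB motif, at chr5:90890995-90891294 (plus strand, GRCm38.p6, RefSeq), with capitals marking them.
Cxcl1: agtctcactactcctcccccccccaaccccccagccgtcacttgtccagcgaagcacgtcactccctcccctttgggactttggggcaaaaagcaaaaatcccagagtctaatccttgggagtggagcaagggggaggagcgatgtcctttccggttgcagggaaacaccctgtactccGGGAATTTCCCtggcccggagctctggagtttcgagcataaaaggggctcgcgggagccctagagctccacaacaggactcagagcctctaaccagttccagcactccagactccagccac
The motif searched was GGGANNTTCC on both strands without mismatches. It is found in 1.5% of all 12567 promoters and in 0 of the 22 acute-phase promoters. The STAT motif TTCCNGGAA, which can share letters with it, is found in 1.10% of all promoters and in 2 of those 22.

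Of 12 neutrophil markers, 5 lay above 0 and 7 below, 2 were higher past the study thresholds (0.871% of all genes) and the median difference was -0.06. S100a8 and S100a9, the subunits of calprotectin and the 2 that passed, differed by 1.71 (SE 0.68) and 1.51 (SE 0.63), and Prtn3, a granule protease of neutrophils that is not on the list, by 2.63 (SE 0.81). Prtn3 read 4.32, 4.44 and 4.56 in WT vehicle and 8.63, 6.90 and 4.80 in WT GW4064, against 4.39 to 5.08 in the 6 knockout arrays. S100a8 read 7.56, 5.83 and 4.30 in WT GW4064 and 4.26 to 5.02 in the other 9 arrays compared. For S100a8 and Prtn3, WT GW4064 replicates 1 and 2 stood above the other arrays and replicate 3 did not. Without replicate 1, Prtn3 was at 1.71, S100a8 at 0.88 and S100a9 at 0.78, the last no longer past the study thresholds. S100a8 did not pass without vehicle replicate 2 of the knockout (1.54), and S100a9 without any 1 of 5 arrays other than replicate 1. The mean level of those markers ran from 4.66 to 5.24 in WT GW4064 and from 4.62 to 4.84 in the other 3 groups compared. Their part in the acute-phase difference was not tested. Prg4 (lubricin) passed the adjusted test in WT (2.07, limma, adjusted p = 0.0433) and differed by 1.78 (SE 0.57).

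Igfbp1 and G6pc, which insulin represses, had effects of opposite sign in the 2 genotypes. Igfbp1, which binds insulin-like growth factors, had the lowest difference of all 12394 genes. It read 11.84, 10.75 and 11.68 in WT vehicle and 9.27, 9.91 and 10.49 in WT GW4064. In the knockout it read 9.87, 9.43 and 10.49 under vehicle and 12.14, 10.29 and 12.30 under GW4064. All WT GW4064 arrays lay below the WT vehicle arrays, and in the knockout only GW4064 replicate 2 lay inside the vehicle range. The effect was -1.53 in WT and 1.65 in the knockout, with a difference of -3.18 (SE 0.62, 95% interval -4.49 to -1.87, limma, adjusted p = 0.437). The whole-body knockout effect was -0.29, at a level of 11.81 to 12.44 in all 6 arrays. Under vehicle, liver knockout minus WT was -1.49 for Igfbp1 (limma, adjusted p = 0.130).

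G6pc, the catalytic subunit of glucose-6-phosphatase and the last step of glucose release, gave the same signs. It read 12.10, 11.97 and 11.65 in WT vehicle, 9.38, 10.37 and 11.37 in WT GW4064, 11.39, 11.28 and 11.77 in knockout vehicle and 12.83, 11.88 and 12.13 in knockout GW4064. The groups were apart in both genotypes and in opposite directions. The effect was -1.53 in WT and 0.80 in the knockout, and the difference was -2.33 (SE 0.48, 95% interval -3.35 to -1.31, limma, adjusted p = 0.437). Without GW4064 replicate 1 of WT, the array with the lowest value, it was -1.83 (SE 0.37).

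The promoters of Igfbp1 and G6pc are shown because both genes are repressed by insulin through elements known to lie near their starts, and these 2 genes had the lowest differences. Capitals mark matches to the core of that element, CAAAACA, searched on both strands without mismatches. Igfbp1 is at chr11:7197537-7197836 and G6pc at chr11:101367466-101367765 (both plus strand, GRCm38.p6, RefSeq).
Igfbp1: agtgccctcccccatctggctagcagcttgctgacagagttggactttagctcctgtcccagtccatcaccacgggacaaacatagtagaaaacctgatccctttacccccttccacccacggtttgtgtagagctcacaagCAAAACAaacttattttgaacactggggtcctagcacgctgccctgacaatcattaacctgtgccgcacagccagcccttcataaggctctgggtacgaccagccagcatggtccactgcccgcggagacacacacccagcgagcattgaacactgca
G6pc: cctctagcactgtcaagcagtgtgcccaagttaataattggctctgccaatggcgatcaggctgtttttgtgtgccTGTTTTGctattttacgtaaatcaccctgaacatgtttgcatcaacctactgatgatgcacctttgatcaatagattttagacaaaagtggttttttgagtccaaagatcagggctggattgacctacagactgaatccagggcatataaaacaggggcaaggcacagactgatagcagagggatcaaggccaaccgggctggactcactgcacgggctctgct
The match begins 108 bases before the start of Igfbp1 and, on the opposite strand, 174 bases before that of G6pc. It is found in 4.51% of all promoters and in 5.22% of the 134 promoters of the 116 lower genes, of which 94 have an entry. It is also found in 3.81% of the 105 promoters of higher genes. Among the 22 acute-phase promoters, whose genes had differences above 0, 5 hold it (22.7%). The forkhead motif GTAAACA is found in neither of the promoters shown and in 2.75% of all.

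Of the 17 genes measured on the gluconeogenesis and insulin list, 9 lay below 0 and 8 above, 4 were lower past the study thresholds (0.936% of all genes), 1 was higher (0.871%) and 12 did not pass, with a median difference of -0.05. Besides Igfbp1 and G6pc these were Igfbp2, another binding protein of the family (-0.79, SE 0.36, chosen after its value was seen), and Irs1. Irs1, an adaptor of the insulin receptor, differed by -0.83 (SE 0.32) and Irs2 by -0.47 (SE 0.16), with negative effects in WT and positive ones in the knockout in both. Irs1 no longer passed with any 1 of 4 arrays left out (-0.61 to -0.74), nor Igfbp2 with any 1 of 9 (-0.61 to -0.81). Ppp1r3c, which directs a phosphatase to glycogen, differed by 1.63 (SE 0.64), and no longer passed with any 1 of 5 arrays left out (1.33 to 1.44). It read 8.80, 9.81 and 9.57 in WT vehicle, 10.66, 11.05 and 10.31 in WT GW4064 and 10.29 to 12.01 in the 6 knockout arrays. Txnip and Fbxo32, chosen after their values were seen, also had opposite effects. Txnip, which glucose induces, had effects of -0.62 and 0.77 and a difference of -1.39 (SE 0.42). Fbxo32 (atrogin 1), a ubiquitin ligase, had effects of -0.47 and 0.45 and a difference of -0.92 (SE 0.19), with its groups apart in both genotypes.

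Egr1 and Hspb1 had differences below 0 from vehicle levels that differed between the genotypes. Egr1, an immediate early transcription factor, read 9.23, 7.52 and 7.61 in WT vehicle, 6.87, 6.29 and 6.61 in WT GW4064, 6.15, 6.65 and 6.30 in knockout vehicle and 6.70, 6.79 and 7.08 in knockout GW4064. Hspb1, a small heat shock protein, read 9.76, 9.66 and 9.52 in WT vehicle, 8.09, 8.26 and 8.88 in WT GW4064, 8.23, 7.31 and 7.87 in knockout vehicle and 9.73, 7.92 and 7.82 in knockout GW4064. The WT vehicle arrays were the highest group for both genes, apart from GW4064 replicate 1 of the knockout for Hspb1. Differences were -2.02 (SE 0.58) for Egr1 and -1.92 (SE 0.52) for Hspb1. Under vehicle Hspb1 was lower in the knockout (-1.84, limma, adjusted p = 0.0227), and the same comparison did not pass for Egr1 (-1.75, limma, adjusted p = 0.0573). The same vehicle arrays enter the difference and the comparison under vehicle. Plk3, a stress-induced kinase, differed by -1.23 (SE 0.43), and Ms4a4d, a membrane protein of the MS4A family, by -1.20 (SE 0.45), the latter with 4.64 in WT GW4064 replicate 1 against 6.40 to 7.18 in the other 11 arrays compared and a difference of -0.59 without that array. Without vehicle replicate 1 of WT the difference was -0.80 for Plk3.

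**Figure D3:**
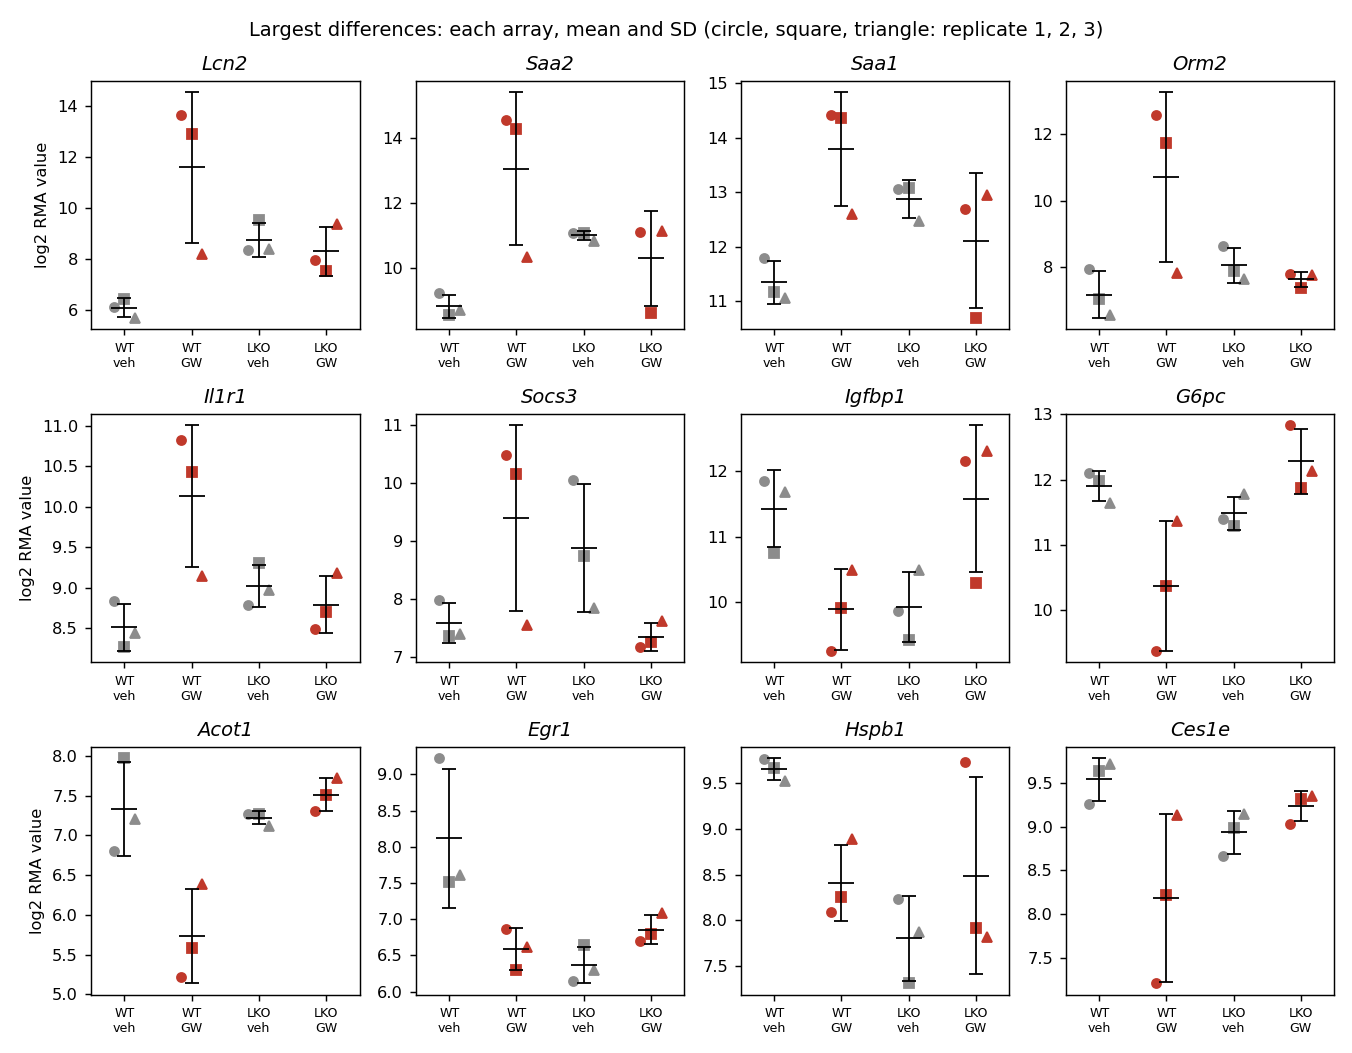
Log2 RMA values of 12 genes in the 4 groups (vehicle grey, GW4064 red), with replicate 1 as a circle, 2 as a square and 3 as a triangle, and bars giving the mean and SD. In WT GW4064 the triangle lies nearest the vehicle arrays for Lcn2 (8.22) and G6pc (11.37), and for Igfbp1 and G6pc the knockout moves opposite to WT.

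Most genes of fatty acid synthesis had differences below 0. Of 23 genes of fatty acid and triglyceride synthesis, 19 lay below 0 (6205 of 12394 among all genes), 5 were lower past the study thresholds (0.936% of all genes) and 0 were higher (0.871%), with a median difference of -0.32 from -0.47 in WT and -0.03 in the knockout. Elovl6, a fatty acid elongase, differed by -1.37 (SE 0.55), Mlxipl (ChREBP), a glucose-responsive activator of lipogenic genes, by -0.64 (SE 0.25), the desaturase gene Scd1 by -0.59 (SE 0.25) and the phosphatidate phosphatase gene Lpin2 by -0.66 (SE 0.21). The fifth was the elongase gene Elovl5 at -0.62 (SE 0.29), chosen after its value was seen. The lowest difference on the list, -2.04, belonged to a gene that was not past the study thresholds. The list's median by array was -0.998, -0.438 and -0.103 in WT GW4064 replicates 1 to 3 against -0.26 to 0.09 in knockout GW4064, so that the groups overlapped, and the median difference was -0.19 without WT GW4064 replicate 1 and -0.71 without replicate 3. Without replicate 1 none of the 5 genes passed the study thresholds, at -0.92 for Elovl6, -0.34 for Mlxipl, -0.51 for Scd1, -0.55 for Lpin2 and -0.51 for Elovl5. With other single arrays left out Elovl6 and Elovl5 no longer passed in 4 cases each, Scd1 in 5 and Lpin2 in 3, and Elovl5 was at -0.36 without vehicle replicate 3 of WT. Of 18 genes of cholesterol synthesis and uptake, 0 were past the study thresholds in either direction, and GW4064 gave medians of -0.41 in WT, -0.27 in the liver knockout and -0.23 in the whole-body knockout.

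Targets of PPARalpha, the receptor that drives fatty acid oxidation, included Acot1 and Acaa1b. Acot1, a long-chain acyl-CoA thioesterase, read 6.81, 7.98 and 7.20 in WT vehicle, 5.22, 5.59 and 6.39 in WT GW4064, 7.27, 7.28 and 7.13 in knockout vehicle and 7.31, 7.51 and 7.72 in knockout GW4064. It fell in WT (-1.60, limma, adjusted p = 0.0433), was higher in all 3 GW4064 arrays of the knockout (0.29), and differed by -1.89 (SE 0.40, limma, adjusted p = 0.437). Acaa1b, a peroxisomal thiolase, differed by -1.46 (SE 0.52), with 10.66, 12.32 and 12.97 in WT GW4064 against 13.39, 13.52 and 13.23 under vehicle and a difference of -0.79 without GW4064 replicate 1. Pdk4, which limits glucose oxidation, differed by -0.99 (SE 0.33), and Fgf21, a fasting hormone of the liver, by -0.63 (SE 0.19), below 1.5-fold with any 1 of 3 arrays left out (-0.49 to -0.53). Of 23 genes on that list 4 were lower past the study thresholds (0.936% of all genes) and 0 higher (0.871%), and the median was -0.24. The carboxylesterase gene Ces1e differed by -1.66 (SE 0.46), with 7.20, 8.22 and 9.13 in WT GW4064, 9.26 to 9.72 in WT vehicle and 8.67 to 9.35 in the 6 knockout arrays.

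Several bile acid genes and known FXR targets had effects of the same sign in both genotypes. Of the 24 genes that GW4064 changed in WT, 6 had an unadjusted limma p under 0.05 in the liver knockout, against 5.02% of all genes, and all 6 moved in the same direction as in WT. They were Csad, Dnase2a, Ppfibp2, Nr0b2, Usp2 and Ripk4. In the whole-body knockout 3 of the 24 had such a p, against 6.25% of all genes, and 2 of these moved as in WT. WT, liver knockout and whole-body knockout effects share no arrays. The median size of the effect over the 24 genes was 0.78 in WT, 0.18 in the liver knockout and 0.24 in the whole-body knockout, beside 0.07 and 0.08 over all genes in the 2 knockouts.

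Csad, which makes the taurine that is joined to bile acids, read 11.38, 11.59 and 11.52 in WT vehicle and 8.14, 8.59 and 9.49 in WT GW4064. In the liver knockout it read 10.21, 10.45 and 10.88 under vehicle and 8.45, 8.94 and 8.17 under GW4064. In the whole-body knockout it read 11.29, 11.66 and 11.28 under vehicle and 10.49, 11.52 and 11.40 under GW4064. GW4064 and vehicle were far apart in WT and in the liver knockout and overlapped in the whole-body knockout. The effect was -2.76 in WT (limma, adjusted p = 0.000965), -1.99 in the liver knockout (limma, adjusted p = 0.0704) and -0.28 in the whole-body knockout. The difference between WT and liver knockout was -0.77 (SE 0.43), with a 95% interval of -1.68 to 0.14, and was -0.47 without GW4064 replicate 1 of WT and -1.15 without replicate 3. Liver minus whole-body knockout was -1.71, which did not pass (limma, adjusted p = 0.616).

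Dnase2a, a lysosomal nuclease, gave the same order and was chosen after its value was seen, as were Ripk4 and Ppfibp2. It read 10.68, 11.37 and 10.82 in WT vehicle, 7.93, 8.75 and 9.87 in WT GW4064, 10.64, 10.58 and 10.91 in liver knockout vehicle and 9.18, 9.30 and 8.60 in liver knockout GW4064. Both genotypes were apart. The effect was -2.11 in WT, -1.69 in the liver knockout and -0.24 in the whole-body knockout, and the difference was -0.42 with a 95% interval of -1.52 to 0.67. Without GW4064 replicate 1 of WT the difference was 0.04, and without replicate 3 it was -0.93.

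Nr0b2, the SHP gene, read 7.85, 7.86 and 8.21 in WT vehicle and 10.84, 9.59 and 9.04 in WT GW4064. It read 7.56, 8.01 and 8.18 in liver knockout vehicle and 8.78, 9.04 and 8.66 in liver knockout GW4064. It read 8.77, 8.16 and 8.16 in whole-body knockout vehicle and 8.04, 7.77 and 7.04 in whole-body knockout GW4064. GW4064 arrays were above vehicle in WT and in the liver knockout and below vehicle in the whole-body knockout, with no overlap in any. The effects were 1.85, 0.91 and -0.75, and the difference between WT and liver knockout was 0.94 (SE 0.48, 95% interval -0.08 to 1.97). It was 0.43 without GW4064 replicate 1 of WT and 1.33 without replicate 3. Usp2, a clock-driven deubiquitinase, had effects of 1.42, 0.61 and -0.28 and a difference of 0.81 (SE 0.30), which no longer passed without vehicle replicate 1 of WT (0.54). Ripk4, a kinase, had effects of 0.75, 0.49 and 0.29, and Ppfibp2, a liprin scaffold gene, -0.60, -0.29 and 0.13, with differences of 0.26 (SE 0.20) and -0.31 (SE 0.16).

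Cyp8b1, the sterol 12-alpha-hydroxylase that makes cholic acid, read 12.23, 11.81 and 11.65 in WT vehicle, 8.12, 9.79 and 10.46 in WT GW4064, 11.94, 11.96 and 12.11 in liver knockout vehicle and 11.30, 10.48 and 11.61 in liver knockout GW4064. GW4064 arrays lay below vehicle in both genotypes, and those of WT lay below those of the knockout. The effect was -2.44 in WT (limma, adjusted p = 0.0433) and -0.87 in the knockout, and the difference was -1.57 (SE 0.59). It was -0.90 without GW4064 replicate 1 of WT and -2.07 without replicate 3, past the study thresholds in both cases. Cyp7a1, the rate-limiting enzyme of bile acid synthesis, read 10.75, 10.44 and 10.61 in WT vehicle, 5.82, 7.18 and 10.19 in WT GW4064, 10.38, 11.13 and 11.29 in liver knockout vehicle and 9.64, 10.04 and 10.17 in liver knockout GW4064. Its effects were -2.87 and -0.98, and the difference of -1.89 (SE 0.98, limma, adjusted p = 0.704) was -3.12 without GW4064 replicate 3 of WT and -0.94 without replicate 1. In the whole-body knockout the effects of Cyp8b1 and Cyp7a1 were -0.34 and 0.32.

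The Cyp8b1 promoter is shown as that of the bile acid gene past the study thresholds, at chr9:121916256-121916555 (minus strand, GRCm38.p6, RefSeq), with capitals marking a match to AGGTCANTGACCT with at most 3 mismatches, 58 bases before the start.
Cyp8b1: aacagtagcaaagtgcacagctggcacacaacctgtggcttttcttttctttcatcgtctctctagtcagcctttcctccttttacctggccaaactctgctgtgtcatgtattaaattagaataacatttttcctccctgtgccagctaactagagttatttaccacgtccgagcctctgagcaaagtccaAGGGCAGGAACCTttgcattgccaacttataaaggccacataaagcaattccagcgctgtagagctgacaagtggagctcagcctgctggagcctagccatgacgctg
Such a match is found in 11.2% of the 134 promoters of lower genes, near the 10.2% of all promoters, and in 18.1% of the 105 promoters of higher genes. No match was found in the 300 bases of the Nr0b2 promoter, which says only that these letters are not in that window.

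**Figure D4:**
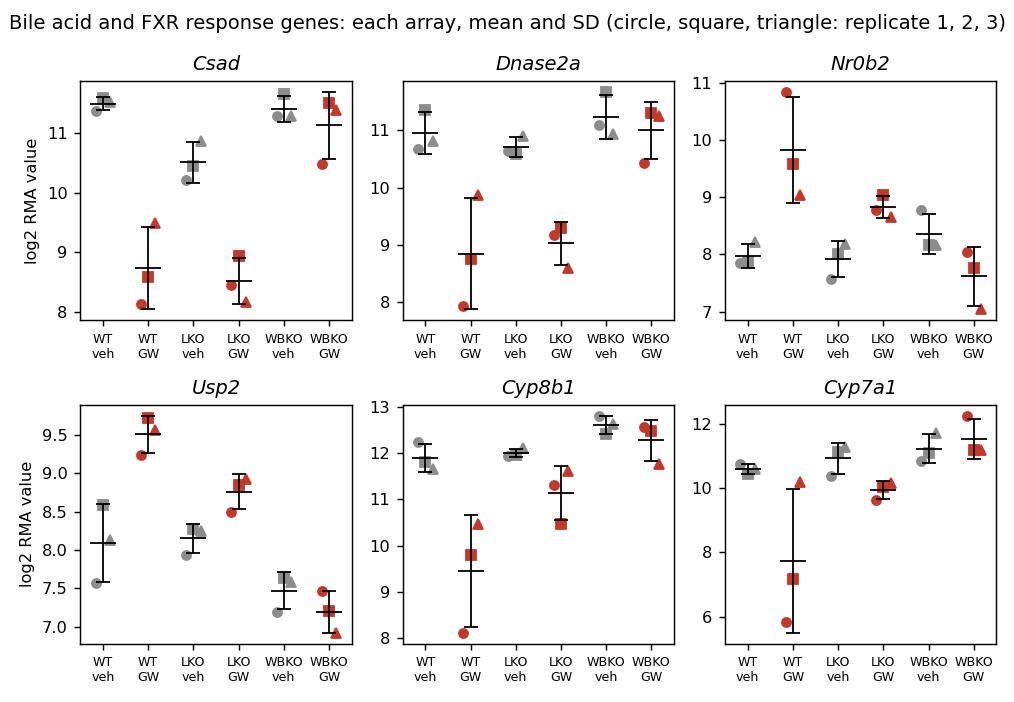
Log2 RMA values of 6 genes in all 6 groups (vehicle grey, GW4064 red; circle, square and triangle for replicates 1, 2 and 3; bars give mean and SD). GW4064 arrays lie below vehicle in WT and liver knockout for Csad, Dnase2a, Cyp8b1 and Cyp7a1 and above it for Nr0b2 and Usp2, and the whole-body knockout shows effects of -0.28 for Csad and -0.75 for Nr0b2.

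Other members of the bile acid system had smaller differences. Of 19 genes of bile acid synthesis and conjugation, 1 was lower past the study thresholds (Cyp8b1; 0.936% of all genes), and the median difference was -0.14. Of 15 transporter genes 1 was lower and 0 higher, and of 12 genes of FXR, SHP and FGF15 signalling and 17 of taurine and sulfur amino acids 0 passed in either direction. Abcb11, the bile salt export pump, read 10.83 to 11.02 in the 6 liver knockout arrays and 11.44 to 11.66 in the 6 WT arrays, and its difference was 0.05 (SE 0.20, 95% interval -0.37 to 0.48). Abcb4, the phospholipid flippase, differed by 0.03 (SE 0.18). Slc51a, a subunit of the basolateral bile acid exporter, was dim at 4.11 to 4.57 and differed by -0.32 (SE 0.13). Abcc3, a basolateral efflux pump, was the lower transporter. It read 9.78 to 10.33 in the 6 WT arrays, 9.08, 9.16 and 9.49 in knockout vehicle and 9.70, 9.97 and 10.20 in knockout GW4064, with effects of 0.72 in the knockout and -0.06 in WT. Its difference of -0.77 (SE 0.34) no longer passed with any 1 of 8 arrays left out (-0.63 to -0.79). Fgf15 was dim in liver at 4.15 to 4.70, and its difference was 0.21 (SE 0.16). Its receptor Fgfr4 differed by 0.28 (SE 0.19) and Klb, the beta-Klotho gene, by -0.30 (SE 0.28).

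Abcc3 was 1 of the 34 genes with an unadjusted p under 0.05 in the liver knockout alone. The following 4 were chosen after their values were seen. Etfbkmt, a mitochondrial lysine methyltransferase, read 9.71 to 10.22 in WT, 9.30, 8.73 and 9.09 in knockout vehicle and 10.36, 10.24 and 9.53 in knockout GW4064. Its effect was -0.24 in WT and 1.004 in the knockout, and under vehicle knockout minus WT was -1.03 (limma, adjusted p = 0.0167). Rarres2 (chemerin), a secreted chemoattractant, read 12.26 to 12.65 in WT, 9.88, 9.75 and 9.61 in knockout vehicle and 9.97, 10.88 and 10.80 in knockout GW4064. Under vehicle knockout minus WT was -2.73 (limma, adjusted p = 3.88e-06), and its effects were -0.06 and 0.80. Frmd4b had effects of 0.06 and 0.89. Id3, an inhibitor of basic helix-loop-helix factors, had effects of 0.01 and -1.40, with 6.23, 7.92 and 7.50 in knockout GW4064 against 8.96, 8.75 and 8.13 under vehicle. Its difference of 1.41 (SE 0.53) was 0.91 and no longer past the study thresholds without GW4064 replicate 1 of the knockout. In these genes the difference came from GW4064 arrays of the knockout lying apart from its vehicle arrays, with WT arrays that overlapped.

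Most markers of endothelial and stellate cells also had differences below 0. Of 20 endothelial markers 19 lay below 0 (6205 of 12394 among all genes), 2 were lower past the study thresholds (0.936% of all genes) and the median was -0.34, from -0.37 in WT, -0.02 in the liver knockout and -0.24 in the whole-body knockout. Tek, the angiopoietin receptor, differed by -0.87 (SE 0.29) and Ehd3, a membrane trafficking gene of sinusoidal endothelium, by -0.76 (SE 0.24). Stellate cells and fibroblasts were represented by 14 markers, of which 13 had a difference below 0 and 3 were lower past the study thresholds, with a median of -0.33. Reln (reelin) differed by -1.14 (SE 0.40), Ecm1, an extracellular matrix gene, by -0.86 (SE 0.33) and Dcn (decorin) by -0.64 (SE 0.26). Without GW4064 replicate 1 of WT the differences were -0.62 for Reln, -0.50 for Ecm1, -0.35 for Dcn, -0.62 for Tek and -0.50 for Ehd3, and Ecm1, Dcn and Ehd3 no longer passed. Dcn also failed to pass without any 1 of 4 other arrays and Ecm1 without any 1 of 2, and the endothelial median was -0.18 without replicate 1. The mean endothelial level by array was 6.33 to 6.87 in WT GW4064 and 6.88 to 7.10 in the other 3 groups compared, and the mean stellate level was 5.97 to 6.53 against 6.61 to 6.90, so that all 3 WT GW4064 arrays were the lowest for both lists. The mean hepatocyte identity level was 13.67 to 13.69 in WT GW4064 and 13.49 to 13.69 in the other 3 groups. Kupffer cell and macrophage markers (19, median -0.12), lymphocyte markers (14, median -0.02) and cholangiocyte markers (9, median -0.02) had 1, 0 and 0 members past the study thresholds. The part of these cells in the genes above was not tested.

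Cd74, the invariant chain of MHC class II and the member of the Kupffer cell and macrophage list that passed, read 7.14, 8.20 and 7.94 in WT vehicle, 6.45, 7.60 and 6.63 in WT GW4064, 7.003, 7.07 and 7.24 in knockout vehicle and 7.46, 7.86 and 7.71 in knockout GW4064. Its knockout groups were apart upward and its WT groups overlapped, and the difference was -1.44 (SE 0.48). H2-Aa, H2-Eb1 and H2-Ab1, which encode class II chains and were chosen after their values were seen, differed by -1.82 (SE 0.62), -1.12 (SE 0.40) and -0.999 (SE 0.47). H2-Ab1 no longer passed with any 1 of 10 arrays left out (-0.83 to -1.07). Among 18 retinol genes 1 was past the study thresholds in each direction, the retinol dehydrogenase gene Rdh9 at 0.91 (SE 0.38) and the retinoic acid receptor gene Rarb at -0.92 (SE 0.31). Rdh9 no longer passed with any 1 of 5 arrays left out, and was at 0.61 without vehicle replicate 3 of WT. Among 18 circadian clock genes 1 was higher, Usp2, and the median effect was 0.10 in WT and 0.31 in the liver knockout. The clock repressor gene Per2 had effects of 1.19 and 0.44 and a difference of 0.75 (SE 0.38). Bmp6, which encodes the signal that links iron to hepcidin, fell in WT (-0.57, limma, adjusted p = 0.0433), was at 0.06 in the liver knockout and differed by -0.64 (SE 0.13), which was below 1.5-fold with any 1 of 3 arrays left out (-0.56 to -0.58).

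**Figure D5:**
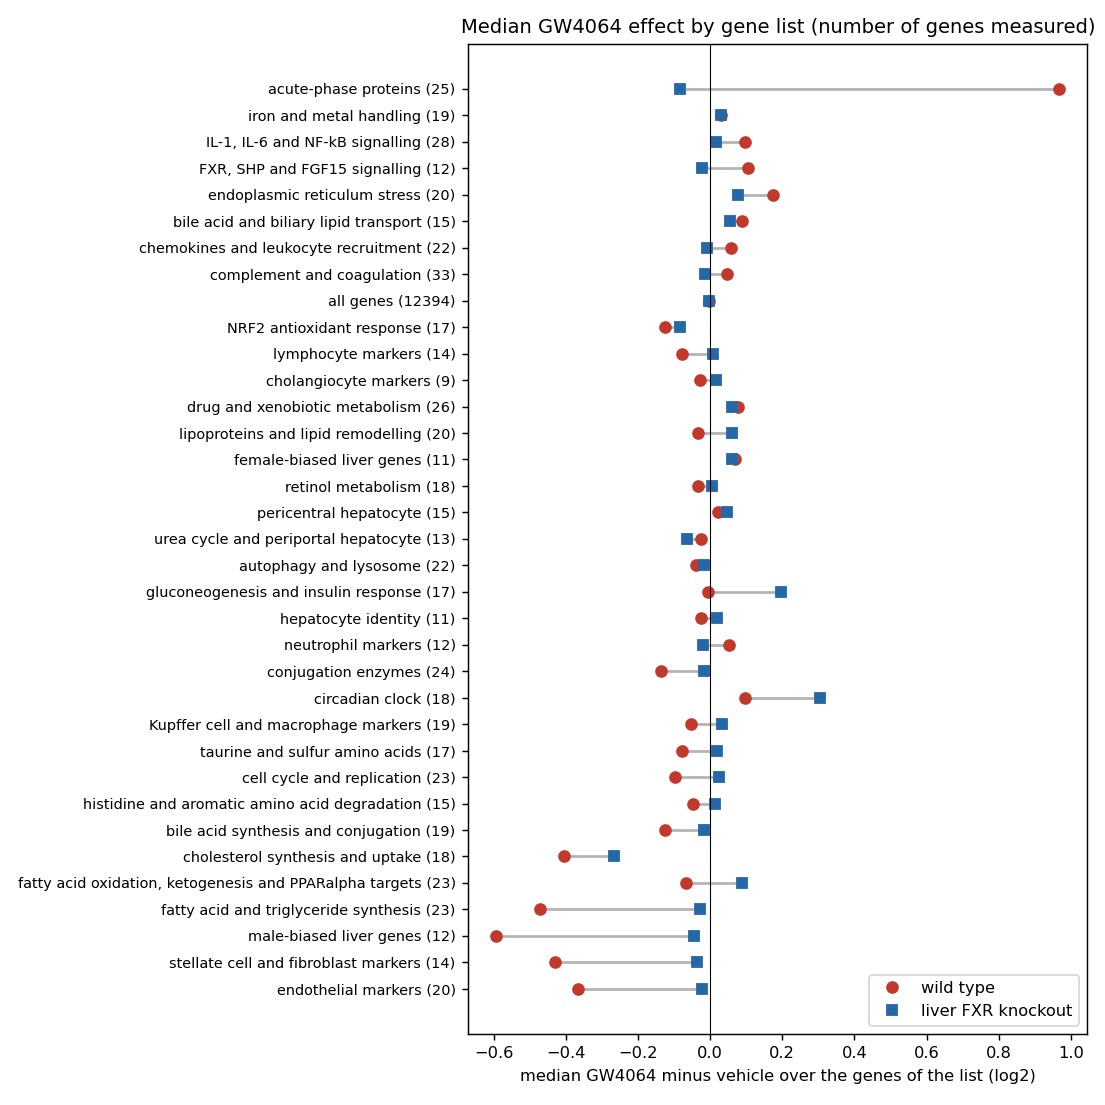
Median GW4064 effect (log2) over the measured genes of each list in WT (red circles) and in the liver FXR knockout (blue squares), ordered by the median difference. All 12394 genes form a row of their own, and the vertical line marks 0. Acute-phase proteins stand alone at the top with medians of 0.97 and -0.08, and endothelial markers lie at the bottom with -0.37 and -0.02.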

How the data were processed

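Liver RNA of 18 mouse samples in 6 groups of 3 was measured on microarrays, 1 array a sample. The authors deposited log2 values after robust multi-array averaging (RMA; version not given in the sources used here), and they were used without further scaling; RMA sets the arrays to a common distribution, so a shift shared by all genes would not be seen. Doses and times follow the labels, which differ from the dosing of WT mice and the array in the study's methods. Of 22690 probe sets, 20393 had 1 gene symbol in the platform annotation (20364 matched to RefSeq GRCm38.p6 by gene identifier, 0 symbols changed), and the brightest probe set of each gene was kept (12394 genes, no filter on dim genes). Close paralogs (Saa, Orm, Ces1, Acot and H2 genes) may share probes.

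A model with 6 group means was fitted to all 18 arrays with limma 3.58.1 (R 4.3.3, lmFit and eBayes, 12 residual degrees of freedom, 2-sided), and p-values were adjusted by Benjamini-Hochberg over 12394 genes at 0.05. Intervals are 95%. In a test on simulated data, 93 of 100 genes with a true log2 difference of 1 were called and 100 of 100 with 2. Of 12194 unchanged genes 9 were called. These rates do not carry over to the measured genes, where 88 of 12394 had a difference over 2-fold and 0 passed the adjusted test. The SE of the difference was 0.149 at the median over all genes and 1.48 for Lcn2. The simulation therefore does not show that differences of this size would have been found in genes that vary as much. The number of arrays limits the precision. Sequences were taken from RefSeq promoters (9888 genes matched). The genes and lists were chosen with earlier results of these data known. Genes were named as the up to 10 largest differences in each direction at the study thresholds with WT arrays that did not overlap, known FXR genes, and the 4 lowest p in each list; others are given as chosen after their values were seen. Alternatives to the fit, the genes, the scaling and the arrays are given at the end.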

Additional observations from a re-analysis of the deposited data

Results flagged for a closer look

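In 5 of the 83 genes given above, all 3 GW4064 arrays lay on one side of all 3 vehicle arrays in WT and on the opposite side in the liver knockout. The difference was -1.89 for Acot1, -2.02 for Egr1, -0.92 for Fbxo32, -2.33 for G6pc and 0.87 for Orm1. None of the 5 passed the adjusted limma test of the difference. Among all 12394 genes 77 had arrays placed in this way (0.621%), and the 83 genes were partly chosen by their difference, so the share among them (6.02%) is a description.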

How the results depend on the processing

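With limma and adjustment over all genes, the difference had 0 genes under each setting that kept all arrays; leaving out single arrays gave 0 to 50, the highest without WT GW4064 replicate 3, when 209 of the 224 genes stayed past the study thresholds. The 224 became 140 with an unmoderated t statistic and 125 to 409 with single arrays left out, and median centring moved the split from 108 higher and 116 lower to 117 and 103. For the GW4064 effect in WT, the 24 genes became 0 within the 6 WT arrays alone, 11 with a trended and robust prior, 12 with the mean of probe sets, 0 with an unmoderated t statistic and 1 to 268 with arrays left out; the 212 became 65 with an unmoderated t statistic and 101 to 379. For the liver knockout, the 0 genes became 2 within its 6 arrays alone, 7 with array weights, 1 with the replicate block and 0 to 2 with arrays left out, and the 57 became 36 with an unmoderated t statistic. For the whole-body knockout the 0 genes became 0 to 4 with arrays left out, and the 67 became 28 with array weights, 102 over all probe sets, 11 with an unmoderated t statistic and 17 to 171 with arrays left out. The cause was not tested.

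Arrays with the same replicate number correlated above 0.1 in 5 of 15 pairs between groups (-0.06 to 0.34). Between vehicle and GW4064 the correlations were -0.03 to 0.04 in WT. They were 0.07 to 0.34 in the liver knockout and 0.10 to 0.22 in the whole-body knockout. These values do not settle whether the numbers pair samples, and what the numbers share was not tested. With the replicate block the difference had 0 genes after adjustment and 241 at the study thresholds, and WT had 16.

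Over 83 genes and 21 settings, 1691 of 1733 values kept direction and side, 27 (26 genes) passed the adjusted threshold and 15 (4 genes) changed sign. Abcb4 was at -0.00586 with array weights, Nr1h4 at -0.0104 with quantile normalization, and with single arrays left out the ranges were -0.12 to 0.16 for Nr1h4, -0.11 to 0.14 for Abcb4, -0.0146 to 0.11 for Abcb11 and -0.93 to 0.0379 for Dnase2a. The median of the gluconeogenesis and insulin list ran from -0.19 to 0.08 with arrays left out and has no settled sign.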

Other observations

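Of the 2297 probe sets without a single gene symbol, 0 passed the adjusted limma test of the difference (lowest adjusted p = 0.545), and 29 were past the study thresholds (1.26%, against 1.81% of named genes). Across all 12394 genes the GW4064 effects in WT and in the liver knockout, which share no arrays, had a Pearson correlation of 0.11 and a Spearman correlation of 0.08. Genes are not independent replicates, and the value is a description of these arrays.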
